A study of Homo sapiens with 18 samples.

Results

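The 52 genes described here act in G2 phase and mitosis. They were taken by symbol from count tables of 3 head and neck squamous carcinoma cell lines, and each of the 52 was found among the 23710 genes of every table and was tested in every comparison. EHF, which belongs to the ETS transcription factors and is found mostly in epithelia, was raised in a pair of lines and lowered in the other. A253, from a submandibular gland tumour, gave 3 libraries of control cells in regular medium and 3 of EHF-overexpressing cells in medium with doxycycline (1 ug, with no volume stated). SCC25, from a tongue tumour, gave 2 libraries of each of the same kinds. CAL27, also from the tongue, was grown in regular medium throughout, with 2 libraries of control cells and 2 of cells with each EHF knockdown. These are called sh 64 and sh 65 as in the count table, whose control columns are named as a control hairpin. The authors' TPM table has these names the other way round: the values of each of its 4 knockdown columns match a count column of the other name within 0.05 on the log2 scale, for every one of the 16399 to 17215 genes above 0 in both. The same 2 libraries go together in both tables, but every value given for sh 64 may belong to sh 65 and the reverse. Which of them is knockdown 1 or 2 is not said. No control cells had doxycycline, so its effect and that of added EHF cannot be told apart. Vectors, and whether the altered cells were clones or pools, are not given in the sources used here. The labels do not say whether replicates were separate cultures, so a p-value covers the spread among these libraries, which may be technical.

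Cells enter mitosis when cyclin B and CDK1 become active, driven by Polo-like and Aurora kinases and released by CDC25 phosphatases. Kinetochores then bind spindle fibres, the spindle checkpoint holds back the anaphase-promoting complex (APC/C) until all are bound, and CDC20 then directs that complex to destroy securin and cyclin B. The genes of this program are switched on late in the cell cycle by MYBL2, FOXM1 and the MuvB proteins. Their promoters often carry a cell cycle homology region (CHR) and CCAAT boxes, the latter bound by NF-Y. In bulk RNA, fewer cells in G2 and mitosis and less RNA of these genes per cell cannot be told apart.

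EHF checked the labels. Its level, as CPM (counts scaled to a common library total with TMM factors), was 84.5, 91.4 and 83.2 in A253 controls and 765, 711 and 633 with overexpression, 461 and 420.0 against 860 and 892 in SCC25, and 962 and 992 in CAL27 controls against 497 and 526 with sh 64 and 444 and 469 with sh 65. Library totals ran from 7068155 to 19962159 counts, and the lowest count of any of the 52 genes in any library was 157. All 11 squamous epithelial markers looked for were detected in every library, with a summed level of 9095 to 20479 CPM. In CAL27 that sum was 9095 and 9453 CPM in controls and between 12388 and 14557 CPM in the 4 knockdown libraries, and its part in the results was not tested. Of 7 fibroblast, 7 leukocyte and 6 endothelial markers, 4 to 7, 4 to 6 and 4 to 6 had counts in a library, with summed levels of 8.28 to 111, 40.5 to 260 and 3.80 to 10.4 CPM. CD3E, a T cell marker, was at 0 in all A253 libraries. PTPRC, the common leukocyte antigen, stayed under 1 CPM in every library, and CD68 was the highest leukocyte marker in each line. In A253 the leukocyte sum was 128 to 133 CPM in controls and 176 to 191 CPM with overexpression. The squamous sum there was 15493 to 16212 CPM in controls and 13132 to 14159 CPM with overexpression. The part of these sums in the results was not tested. In SCC25 the fibroblast sum was 99.6 and 88.8 CPM in controls and 111 and 109 CPM with overexpression, and its part in the results was not tested. Its markers did not move alike. COL1A2 had 141 and 110 counts in controls and 205 and 360 with overexpression, and DCN had 338 and 269 against 169 and 233. The library totals were 15965279 and 14811169 counts in controls and 10728569 and 15089689 with overexpression.

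The control cells of all 3 lines expressed all 52 genes, at levels spread over more than an order of magnitude. To compare genes, counts were divided by gene length and scaled to the same total in each library, as in TPM. On this scale the median over the genes was 110 in A253, 82.0 in SCC25 and 94.8 in CAL27. PTTG1, the securin that holds separase inactive, was highest in A253 (691 ± 19.6, SD, n = 3) and in SCC25 (342 ± 13.7, SD, n = 2), and CCNB1, cyclin B1, was highest in CAL27 (495 ± 2.66, SD, n = 2). ESPL1, separase itself, was lowest in each line, at 17.2 ± 2.61 (n = 3) in A253, 11.9 ± 0.726 in SCC25 and 15.6 ± 1.40 in CAL27 (SD, n = 2 each). ANLN, TOP2A, CCNB1, CDC20 and PTTG1 were the 5 highest in SCC25 and CAL27, and 4 of them were among the 5 highest in A253, where the spindle protein DLGAP5 took the remaining place. These levels were not tested between lines.

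**Figure D1:**
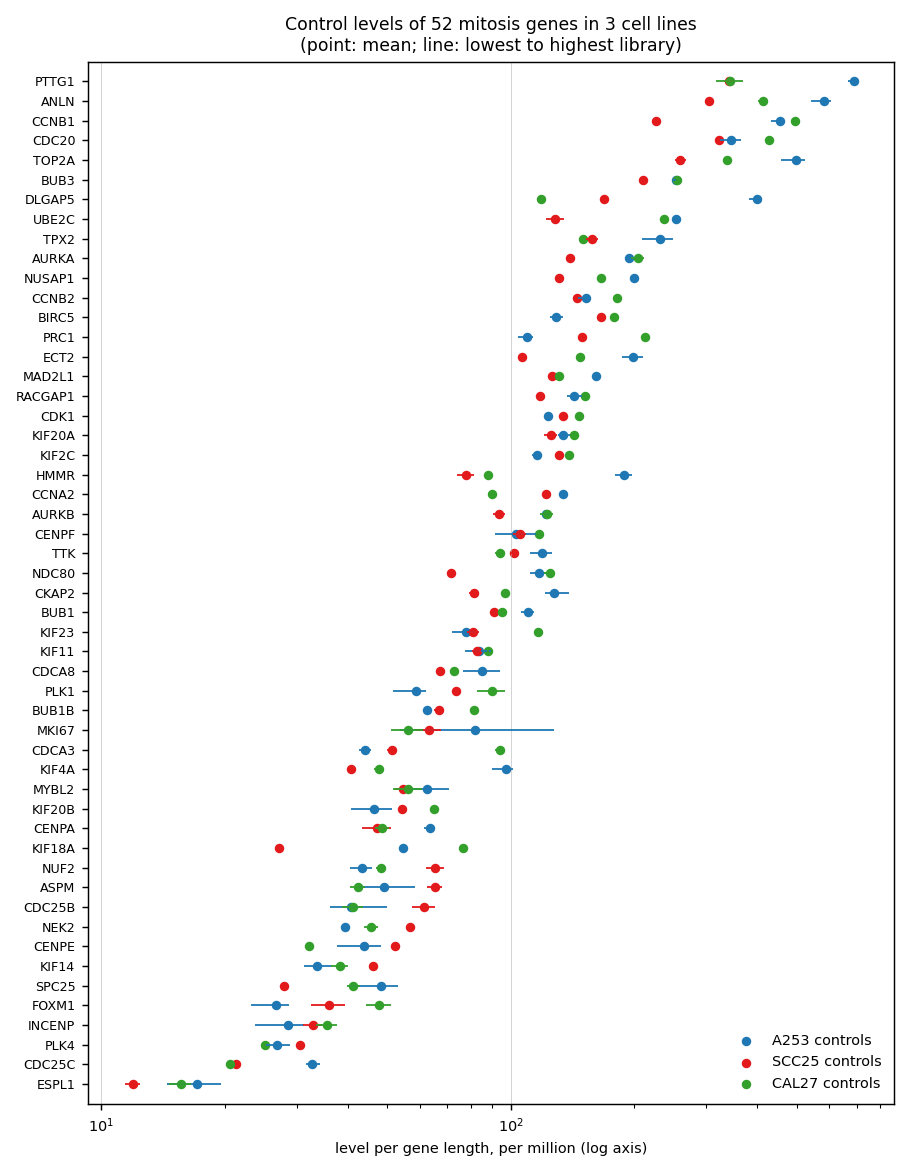
Level per gene length, on the same scale, in the control libraries of A253, SCC25 and CAL27 on a log axis, with 1 row per gene; points are means and lines run from the lowest to the highest control library. PTTG1 is at the top, at 691 in A253, and ESPL1 at the bottom, at 11.9 to 17.2.

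Promoter sequence was held for 44 of the 52 genes in a RefSeq table (GRCh38.p14; 250 bases before to 50 after the start). FOXM1, AURKA, BIRC5, BUB3, TTK, UBE2C, TPX2 and RACGAP1 had no entry. A CHR, searched as TTTGAA or TTCGAA on both strands, was in 32 of 44 (72.7%), against 16.6% of all 27305 promoters of the table. CCAAT, on both strands, was in 33 of 44 (75.0%) against 35.7%. Both were in 27 of 44 (61.4%) against 6.58%, and a promoter held CCAAT at least 2 times in 45.5% against 11.3%. The median CHR match lay at -23 from the start, with 27 genes holding 1 within 50 bases of the start. The median CCAAT match lay at -71, with 28 genes holding 1 between -120 and -30. Places were not counted over all promoters, so these have no background. E2F-like letters (GCGGGAA or GCGCGAA, both strands) were in 18.2% against 8.60%, and ETS-like letters (CCGGAAG or AGGAAGT, both strands) in 29.5% against 18%. Such a match is a run of letters and not a shown binding site. The promoters printed show the range of layouts among genes the comparisons turn on. CCNB1, CDC20 and PLK1 were set by rule, and CDCA8 and CDC25B were added after their values were seen. Capitals mark CHR and CCAAT matches on either strand. In CDCA8, 1 CHR runs into a CCAAT match and shares 1 base with it. CCNB1 has 2 CCAAT matches and no CHR match, and CDC25B has neither.
CDC20 (chr1:43358731-43359030, plus strand): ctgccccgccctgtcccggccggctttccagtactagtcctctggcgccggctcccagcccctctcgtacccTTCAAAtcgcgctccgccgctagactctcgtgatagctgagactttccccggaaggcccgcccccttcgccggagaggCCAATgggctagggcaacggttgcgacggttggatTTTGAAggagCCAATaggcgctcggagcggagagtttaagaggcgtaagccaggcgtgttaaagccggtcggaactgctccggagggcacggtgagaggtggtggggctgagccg
CCNB1 (chr5:69166900-69167199, plus strand): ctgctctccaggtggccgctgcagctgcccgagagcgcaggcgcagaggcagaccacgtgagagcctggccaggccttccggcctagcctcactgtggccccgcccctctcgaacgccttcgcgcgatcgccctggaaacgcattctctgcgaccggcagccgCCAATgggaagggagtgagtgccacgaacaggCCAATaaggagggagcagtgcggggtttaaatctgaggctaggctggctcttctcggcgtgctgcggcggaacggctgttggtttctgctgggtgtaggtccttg
PLK1 (chr16:23678639-23678938, plus strand): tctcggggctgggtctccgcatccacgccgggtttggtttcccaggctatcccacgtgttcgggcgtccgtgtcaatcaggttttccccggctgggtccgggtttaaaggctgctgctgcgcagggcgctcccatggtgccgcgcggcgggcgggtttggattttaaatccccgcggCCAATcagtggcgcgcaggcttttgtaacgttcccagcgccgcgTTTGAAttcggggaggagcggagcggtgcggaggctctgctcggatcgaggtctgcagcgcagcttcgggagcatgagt
CDCA8 (chr1:37692266-37692565, plus strand): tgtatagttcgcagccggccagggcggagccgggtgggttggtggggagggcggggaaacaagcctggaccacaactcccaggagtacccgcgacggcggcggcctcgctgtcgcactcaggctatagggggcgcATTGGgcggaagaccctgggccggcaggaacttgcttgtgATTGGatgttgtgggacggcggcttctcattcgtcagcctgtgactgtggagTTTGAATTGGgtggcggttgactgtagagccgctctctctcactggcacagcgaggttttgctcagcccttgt
CDC25B (chr20:3786701-3787000, plus strand): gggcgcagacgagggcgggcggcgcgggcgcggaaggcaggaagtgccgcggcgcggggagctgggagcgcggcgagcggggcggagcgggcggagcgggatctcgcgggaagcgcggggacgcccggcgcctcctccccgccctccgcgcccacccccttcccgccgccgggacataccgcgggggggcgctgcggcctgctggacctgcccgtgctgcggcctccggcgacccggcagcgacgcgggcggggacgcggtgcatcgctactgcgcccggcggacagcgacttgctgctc

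In A253, raising EHF 8.13-fold left the mitosis genes near their control levels. A single gene of the 52, CDC20, rose (log2 change 0.27, SE 0.065; adjusted p = 0.016), and none fell. Over all 14503 genes tested, 5.03% rose and 2.94% fell, so 1 of 52 was below the share for all genes. The median log2 change of the 52 was -0.01, and that of all genes was 0.00. CDC20, the APC/C activator, stood at 305, 276 and 280.4 CPM in controls and at 350.0, 324 and 363 CPM with overexpression, so that all 3 overexpressing libraries lay above all 3 controls. The call was lost without control replicate 2 (adjusted p = 0.0539), control replicate 3 (0.0652) or overexpression replicate 3 (0.0857).

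The other 51 genes of A253 ran from -0.19 (ESPL1) to 0.19 (HMMR, a hyaluronan receptor that also binds spindle fibres) on the log2 scale. Without adjustment, 6 of the 52 had a p under 0.05. The groups did not overlap for 6 genes that were higher and 1 that was lower, 13.3% and 11% of all tested genes being so. The regulators at the head of the program did not pass the test: FOXM1 had a log2 change of -0.14 (adjusted p = 0.375) and MYBL2 of -0.14 (adjusted p = 0.419). CCNB1 was at 507, 446 and 517 CPM in controls and 473, 449.9 and 518 CPM with overexpression. AURKB, the kinase of the chromosomal passenger complex, was at 79.1, 77.3 and 79.8 CPM against 79.7, 77.9 and 82.6 CPM. For both genes the groups overlapped.

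MKI67, the proliferation antigen that coats mitotic chromosomes, was the least reproducible of the 52 in A253. It stood at 762 CPM in control replicate 2 and 689 CPM in overexpression replicate 1, but at 396 and 345 CPM in the other controls and 415 and 345 CPM in the other overexpressing libraries. Its SD within groups was 0.57 on the log2 scale, where the median over the 52 genes was 0.08. CDC25B, a CDC25 phosphatase, was also highest in those libraries, at 87.5 CPM in each against 59.9 to 68.9 CPM in the other 4. MKI67 was again the most variable in CAL27, with 618 CPM in sh 65 replicate 1 and 319.8 to 450.2 CPM in the remaining libraries. It passed the test in no comparison, and its SE of 0.46 in A253 means that only a large change could have done so.

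In SCC25, where EHF rose 1.99-fold from a higher starting level, the mitosis genes fell together. Of the 52, 33 fell and none rose, against 11.6% lower and 12.2% higher among the 14120 genes tested. All but CDC25B had a negative log2 change (51 of 52), and the median was -0.19 (0.874-fold), where that of all genes was 0.00. The falls were small, with the largest, BIRC5, at 0.737-fold, and the median SE was 0.053. For 47 genes both overexpressing libraries lay below both controls, which held for 30.4% of all tested genes. Summed over the 52 genes, the level went from 9450 and 9732 CPM in the controls to 8517 and 8555 CPM. All 43 S phase genes listed beside them were tested too, and 35 fell and none rose (median log2 change -0.31), so falls were seen in both lists.

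**Figure D2:**
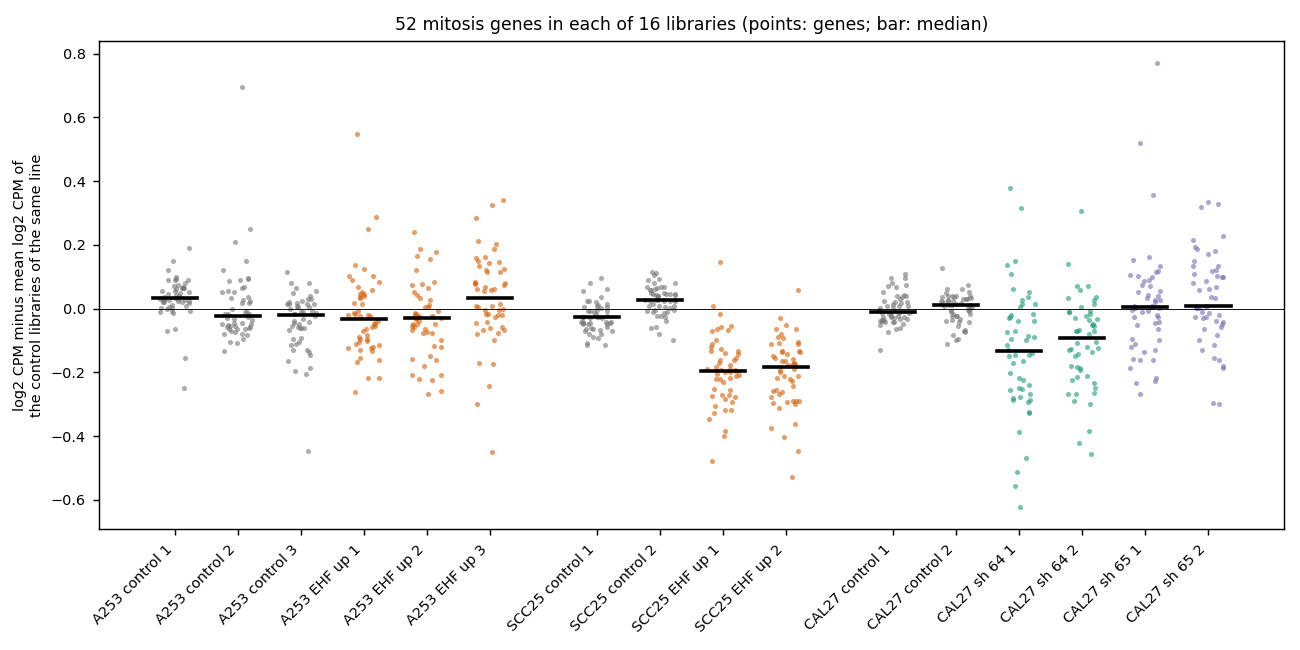
Log2 CPM of each of the 52 genes in each of 16 libraries, relative to the mean log2 CPM of the same line's controls; points are genes and bars are medians. The bars of the SCC25 overexpressing libraries are at -0.19 and -0.18, those of sh 64 at -0.13 and -0.09, and those of A253 and sh 65 stay within 0.04 of 0.

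Among the regulators and entry kinases of SCC25, both transcription factors fell: MYBL2 by 0.26 (adjusted p = 0.00249) and FOXM1 by 0.23 (adjusted p = 0.0143) on the log2 scale. FOXM1 was at 71.5 and 62.5 CPM in controls and at 57.9 and 56.6 CPM with overexpression, and its call was lost without control replicate 1 (adjusted p = 0.150), without overexpression replicate 2 (0.101) and with DESeq2 (0.140). Of 6 genes for cyclins, CDK1 and CDC25 phosphatases, the 3 cyclins fell. CCNB1 went from 245 and 259 CPM to 198 and 203 CPM (log2 change -0.33, SE 0.050; adjusted p = 2.66e-05). CCNA2, cyclin A2 of S phase and G2, changed by -0.28 and CCNB2 by -0.24. CDK1, their partner kinase, did not pass the test (-0.10), nor did CDC25C (-0.16) or CDC25B (0.10). All 4 Polo, Aurora A and NEK kinases fell, led by AURKA, which matures centrosomes (-0.28, adjusted p = 0.000326), with PLK1 and PLK4 at -0.25 each and NEK2 at -0.19.

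The largest falls in SCC25 were in the chromosomal passenger complex, which corrects faulty attachments of chromosomes to the spindle. BIRC5, survivin, went from 222 and 237 CPM in controls to 165 and 174 CPM (log2 change -0.44, SE 0.052; adjusted p = 5.38e-07). AURKB went from 58.5 and 66.2 CPM to 47.2 and 45.7 CPM (-0.43, SE 0.070; adjusted p = 6.47e-05). CDCA8, borealin, fell by 0.29, and INCENP, the scaffold, did not pass the test (-0.14). For BIRC5 and AURKB no overexpressing library reached the lower control. Of 5 spindle checkpoint genes 4 fell, all but BUB3 (-0.09). BUB1B, the checkpoint protein BubR1, went from 128 CPM in each control to 105 and 99.6 CPM (-0.33, SE 0.054; adjusted p = 6.38e-05), and BUB1, MAD2L1 and TTK changed by -0.27, -0.27 and -0.20.

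Of 6 kinetochore genes of SCC25, all had a negative log2 change (median -0.16). The centromere histone CENPA (-0.31) and SPC25 of the NDC80 complex (-0.33) fell, while CENPE, CENPF, NUF2 and NDC80 lay between -0.17 and -0.13 without passing. Of 5 APC/C-related genes, 3 fell. CDCA3, which triggers mitotic entry, had the largest fall at -0.37 (SE 0.0996; adjusted p = 0.00741), followed by PTTG1 (-0.23) and UBE2C, the ubiquitin-conjugating enzyme of the APC/C (-0.20). CDC20, the gene that rose in A253, was at 267 and 286 CPM in controls and at 255 and 252 CPM with overexpression, and did not pass (-0.13, adjusted p = 0.0678). Of 8 kinesins 5 fell, led by the microtubule depolymerase KIF2C (-0.28) and by KIF20A, which works in cytokinesis (-0.27). KIF14, KIF18A and KIF20B had values of -0.08, -0.17 and -0.03 and did not pass. Of 6 spindle-associated proteins 4 fell, by 0.15 (NUSAP1) to 0.18 (DLGAP5), and of 4 cytokinesis genes PRC1 (-0.22), RACGAP1 (-0.20) and ANLN (-0.14) fell. TOP2A (-0.11) and MKI67 (-0.05), the proteins of chromosome structure, did not pass.

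Leaving out libraries changed the count in SCC25 but not its direction. It was 18 without overexpression replicate 2, 22 without overexpression replicate 1, 23 without control replicate 2 and 37 without control replicate 1, with none higher in any of these, and DESeq2 called 21. The 12 genes that remained lower under all 9 alternatives were AURKA, AURKB, BIRC5, BUB1, BUB1B, CCNA2, CCNB1, CCNB2, KIF20A, KIF2C, MAD2L1 and PRC1. Promoter letters were set beside these calls: 69.2% of 26 with a fall and 77.8% of 18 without held a CHR, and 80.8% and 66.7% held CCAAT. These shares were not tested against each other.

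**Figure D3:**
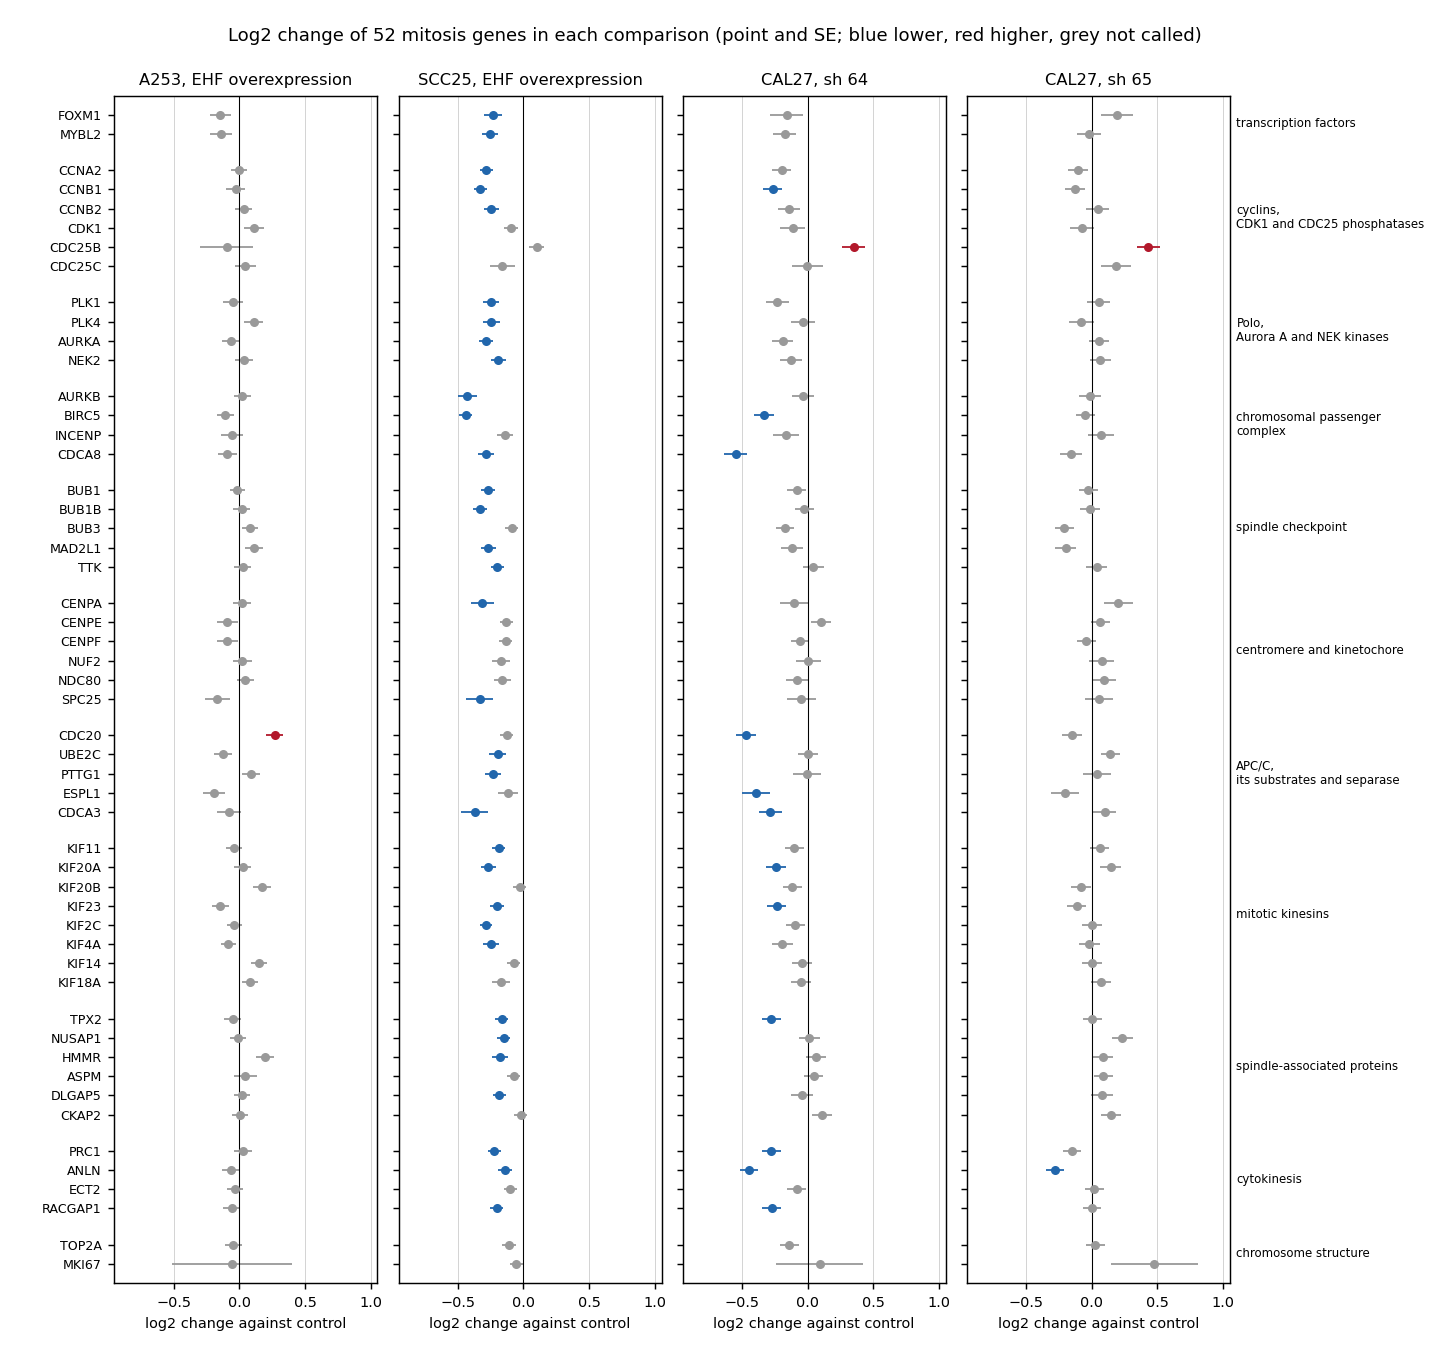
Log2 change of each of the 52 genes against the control cells of its line, with SE, in 4 comparisons (columns) and by role (rows); blue points fell, red points rose and grey points did not pass the test. In SCC25, 33 points are blue, and in A253 1 point, CDC20, is red; CDC25B is red for both CAL27 knockdowns.

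Lowering EHF in CAL27 did not raise the mitosis genes as a group. For the mean of both knockdowns against control, 8 of the 52 fell and 1 rose, where 8.91% of the 13629 genes tested fell and 9.88% rose. The median log2 change of the 52 was -0.05, against 0.00 for all genes. All 4 knockdown libraries lay below both controls for 12 genes and above both for 3, and 17.7% and 17.8% of all tested genes did so. ANLN, anillin of the cytokinetic ring, fell most (-0.36, SE 0.059; adjusted p = 0.000297), followed by CDCA8 (-0.35), CDC20 (-0.31) and ESPL1 (-0.30). PRC1, which bundles the fibres of the central spindle, changed by -0.21, CCNB1 by -0.20, and BIRC5 and BUB3 by -0.19 each. The count of falls was 2 without either control library and 4 without sh 64 replicate 1. ANLN was the gene called under all 11 alternatives, while BIRC5 (adjusted p = 0.0497) was lost under 7 of them.

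CDC25B was the gene of the 52 that rose in CAL27, in all 3 comparisons with control. It stood at 82.0 and 74.8 CPM in CAL27 controls, 102 and 96.9 CPM with sh 64, and 112 and 97.7 CPM with sh 65, above both controls in all 4 knockdown libraries. The log2 change was 0.39 for the mean (SE 0.077; adjusted p = 0.00179), 0.35 with sh 64 and 0.43 with sh 65. All 3 of these calls ended without control replicate 2, where the change for the mean was 0.32 (adjusted p = 0.0970), and the call with sh 64 also ended without sh 64 replicate 1 (0.113). In SCC25, with EHF raised, it was at 120.0 and 111 CPM in controls and 128 and 120.1 CPM with overexpression and did not pass the test.

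The pair of knockdowns gave different counts. With sh 64, 12 of the 52 genes fell and 1 rose (6.89% and 8.76% of all genes), with a median log2 change of -0.11. With sh 65, 1 fell and 1 rose (7.01% and 7.62% of all genes), with a median of 0.03. The knockdowns share their control libraries, so these counts are not independent. Compared directly, 7 of the 52 were higher with sh 65 than with sh 64 and none was lower, where 2.21% and 3.13% of all genes were, and the median difference was 0.13. The summed fibroblast markers were at 14.3 and 16.7 CPM with sh 64, 8.73 and 9.32 CPM with sh 65 and 8.96 and 8.28 CPM in controls, and their part in the falls with sh 64 was not tested. LUM, 1 of these markers, had 111 and 77 counts with sh 64, 31 and 43 with sh 65, and 28 and 67 in controls. The control with 67 had the largest library total, and no other fibroblast marker passed 28 counts with sh 64. The sum with sh 64 was thus mainly LUM. EHF itself had a difference of -0.16 between the knockdowns that did not pass the test (adjusted p = 0.230).

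The 7 genes that differed between the knockdowns were all among the 12 that fell with sh 64. The same sh 64 libraries enter both comparisons, so this overlap is partly built in. CDCA8 was at 91.9 and 95.9 CPM in controls, 61.0 and 68.5 CPM with sh 64 and 83.9 and 84.4 CPM with sh 65 (sh 65 against sh 64: 0.39, SE 0.088; adjusted p = 0.0127). CDC20 was at 376 and 368 CPM in controls, 252.9 and 285 CPM with sh 64 and 342 and 328 CPM with sh 65 (0.32, SE 0.076; adjusted p = 0.0172). KIF20A was at 249.1 and 266 CPM in controls, 211 and 227 CPM with sh 64 and 271 and 298.9 CPM with sh 65 (0.38, SE 0.078; adjusted p = 0.00649). For all 3 genes no sh 64 library reached a library of the other groups. CDCA3 (0.38), TPX2, which activates Aurora A on the spindle (0.28), BIRC5 (0.28) and RACGAP1, of the centralspindlin complex (0.28), made up the remainder. ANLN was the exception: it fell with both, from 1037 and 1006 CPM to 738 and 763 CPM with sh 64 (-0.45, adjusted p = 0.00024) and to 849 and 833 CPM with sh 65 (-0.28, adjusted p = 0.00925). These counts rest on few libraries. Without sh 64 replicate 1, 3 genes fell with sh 64 and no gene differed between the knockdowns. Without control replicate 1 or 2, 4 genes fell with sh 64 and 4 differed, and without sh 64 replicate 2, 7 fell and 5 differed. The fall of ANLN with sh 65 was lost without either control.

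**Figure D4:**
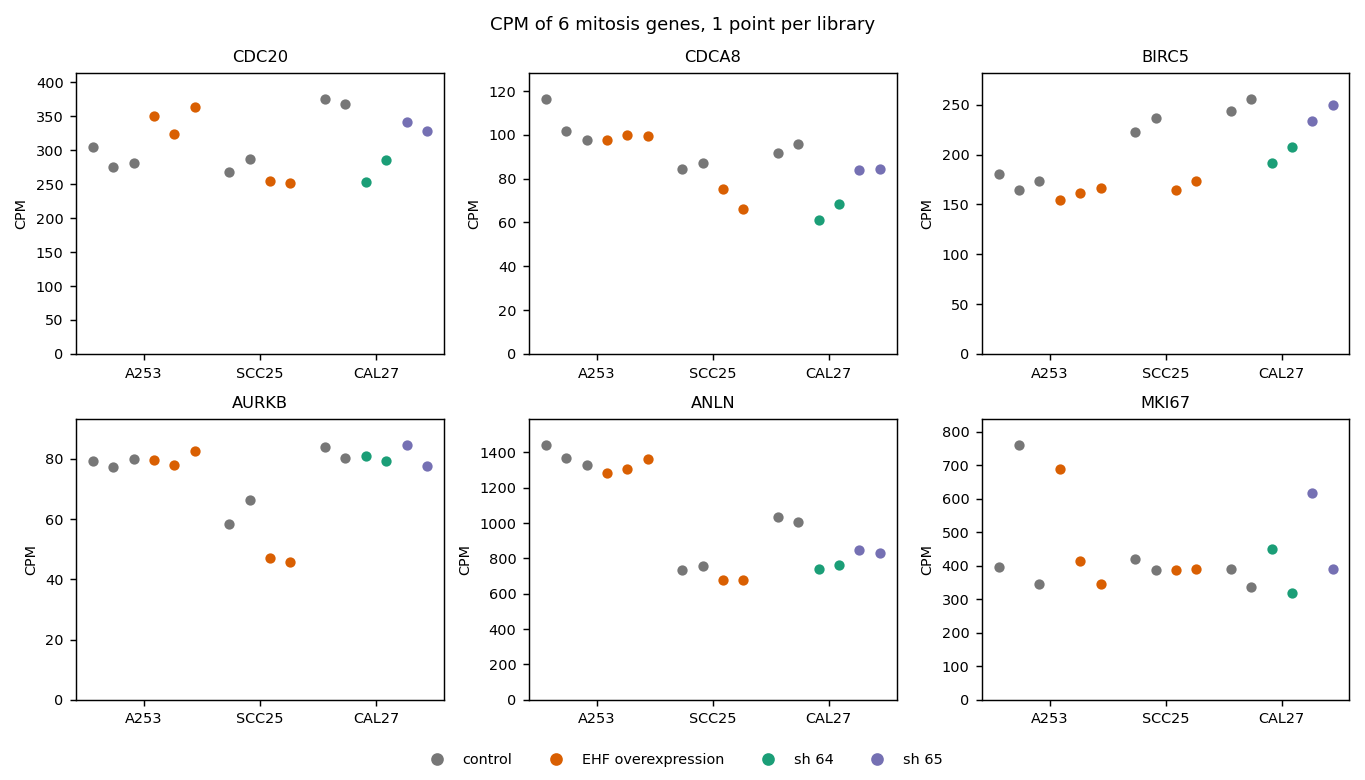
CPM of CDC20, CDCA8, BIRC5, AURKB, ANLN and MKI67, with 1 point per library, linear axes from 0, lines side by side and colours for control, EHF overexpression, sh 64 and sh 65. AURKB is at 47.2 and 45.7 CPM with overexpression in SCC25, below every other library, CDC20 and CDCA8 are lowest with sh 64 in CAL27, and MKI67 is high in single libraries of A253 and CAL27.

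The effect of overexpression on the mitosis genes differed between SCC25 and A253. In a joint fit with a term for the difference, 10 of the 52 had a lower log2 change in SCC25 than in A253 and none a higher one, where 3.25% and 2.39% of the 15460 genes tested did so. The difference was negative for 50 of the 52, with a median of -0.22 (-0.02 for all genes). AURKB had the largest (-0.46, SE 0.096; adjusted p = 0.00616): its log2 change was 0.02 in A253 and -0.43 in SCC25. CDC20 followed (-0.41, SE 0.091; adjusted p = 0.0102), with 0.27 in A253 and -0.13 in SCC25. Then came MAD2L1 and HMMR (-0.39 each), PLK4 (-0.37), BUB1B (-0.36), BIRC5 (-0.35), and CCNA2, CCNB2 and BUB1 (-0.29, -0.29 and -0.27). The count of 10 fell to 0 without SCC25 control replicate 2, to 1 and 2 without SCC25 overexpression replicate 1 and 2, to 4 without SCC25 control replicate 1, and to 5 without A253 control replicate 2 or overexpression replicate 3. DESeq2 gave 5 and edgeR with RLE factors 6.

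No gene of the 52 was called in opposite directions when EHF was raised in SCC25 and when it was lowered in CAL27. Between A253 and CAL27, CDC20 was: it rose in A253 and fell for the mean of the knockdowns and with sh 64. With sh 65 it did not pass. Its call in A253 was lost without control replicate 2, control replicate 3 or overexpression replicate 3. Of the 52, 5 fell both in SCC25 and for the mean of the knockdowns (CCNB1, BIRC5, CDCA8, PRC1 and ANLN). These are 15.2% of the falls in SCC25 and 62.5% of those for the mean of the knockdowns. Another count is that 10 fell both in SCC25 and with sh 64. These 10 are 30.3% of the falls in SCC25 and 83.3% of those with sh 64. Since 63.5% of all 52 genes fell in SCC25, 62.5% is near that background, and the 83.3% rests on 12 genes and was not tested. The effects were compared with a term for their difference. AURKB (0.40, SE 0.103; adjusted p = 0.00998), BUB1B (0.31) and NUSAP1 (0.28) had a higher log2 change with knockdown in CAL27 than with overexpression in SCC25, and none had a lower one (6.81% and 5.75% of the 14939 genes tested). The median difference was 0.17 for the 52 and 0.02 for all genes. The SCC25 libraries enter this comparison and the previous one. Without SCC25 control replicate 2 or overexpression replicate 2 no gene was called, 1 was called without SCC25 overexpression replicate 1 or either CAL27 control, 5 without either sh 64 library, and 10 without sh 65 replicate 1. With library totals alone as the scale 10 were called, all higher, and with no filter on low counts 5, all higher. With a replicate block 9 were higher and 1 lower, and with DESeq2 2 were higher and 1 lower. The lower gene was ANLN, with a difference of -0.22 (adjusted p = 0.0380 with the block, 0.0428 with DESeq2 and 0.0813 in the fit without either).

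No gene of the 52 was called in all 3 lines. The 15 genes called in no comparison were CDK1, CDC25C, INCENP, CENPE, CENPF, NUF2, NDC80, KIF20B, KIF14, KIF18A, ASPM, CKAP2, ECT2, TOP2A and MKI67, which include 4 of the 6 kinetochore genes and both proteins of chromosome structure. CDK1 stood at 218 and 239 CPM in SCC25 controls and 209 and 219 CPM with overexpression, and at 249.5 and 254 CPM in CAL27 controls against 209 to 259 CPM with knockdown. TOP2A, the topoisomerase that untangles sister chromatids, went from 768 and 762 CPM to 698 and 718 CPM in SCC25 with a log2 change of -0.11 that did not pass. A miss of the threshold does not show that a gene stayed the same.

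A second list of 76 mitosis genes was chosen, like the 52, with results of these data known. In SCC25, 45 of them fell and 1 rose, with a median log2 change of -0.21. Together that is 60.5% called, against 23.9% of all genes tested. The largest falls were in the kinesin KIF15 (-0.49), the augmin subunit HAUS8 (-0.45) and FAM64A (-0.39), and NDE1, a dynein partner, rose (0.29). In A253, SKA3 (0.39) and CENPH (0.29) of the kinetochore rose and SPDL1, which recruits dynein there, fell (-0.25). That is 3.95% of the 76, below the 7.97% called over all genes. In CAL27, 13 fell and 1 rose for the mean of both knockdowns, a share of 18.4%, near the 18.8% called over all genes. IQGAP3 (-0.45), TRIP13, a checkpoint ATPase (-0.35), and ARHGAP11A (-0.35) fell most, and TACC3, a spindle protein, rose (0.35). With sh 64, 15 of the 76 fell and none rose (median -0.16), and with sh 65, 4 fell and 1 rose (median -0.02). The shares called were 19.7% with sh 64 and 6.58% with sh 65, against 15.7% and 14.6% of all genes.

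Of 22 regulators of the program, CDKN1A, the CDK inhibitor p21, was named after its values were seen. In SCC25 it rose from 35.8 and 36.4 CPM to 48.9 and 50.8 CPM (log2 change 0.47, SE 0.072; adjusted p = 2.76e-05). In CAL27 it stood at 16.3 and 15.9 CPM in controls, 35 and 41.5 CPM with sh 64 (1.24, SE 0.133; adjusted p = 7.79e-06) and 18.7 and 23.9 CPM with sh 65 (0.40, adjusted p = 0.0679), and it was lower with sh 65 than with sh 64 (-0.84, adjusted p = 0.000824). In A253 it was at 35, 29.3 and 33.2 CPM against 26.6, 27.4 and 26.6 CPM and did not pass (-0.27, adjusted p = 0.0541). CDKN1A thus rose in SCC25 and with sh 64, where most of the called mitosis genes fell. It is 1 of the 22, and its part in those values was not tested. In SCC25, E2F7 (-0.35), TFDP1, RBL1, LIN9 and E2F4 fell. With CDKN1A, 6 of the 22 (27.3%) were called there, near the 23.9% of all genes tested. In CAL27, RBL2 (0.27) and CDKN1A (0.82) rose for the mean of both knockdowns and E2F1 (-0.44) fell. TFDP1 (-0.30) and E2F4 (-0.27), which had fallen in SCC25, fell there too. For that mean, 6 of the 22 (27.3%) were called, against 18.8% of all genes. The shares were 27.3% with sh 64 and 18.2% with sh 65, against 15.7% and 14.6%. No regulator was called in A253, where 7.97% of all genes were, and 4 of the 22 had an unadjusted p under 0.05.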

How the data were processed

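RNA from 16 libraries of A253, SCC25 and CAL27 cells was enriched for mRNA and made into TruSeq libraries, per the labels' protocols. The submitters' processing notes name TopHat2 2.1.1, Bowtie 1.1.1, featureCounts 1.5.3, DESeq2 1.12.4 and the build hg19, with no role or order. The deposited counts are whole reads per gene and are not normalized. CAL27 gene names were taken by row position from the A253 table, since 696 of its 23710 names differed. The deposited TPM values of A253 gave gene lengths, which were applied to the counts of every library to set levels per length. They were checked against the TPM of the CAL27 controls. The deposited TPM table of SCC25 was not used, because its values are divided by length in a way that differs from the other lines. EHF ChIP libraries were not analysed here.

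Counts were tested with edgeR 4.0.16 (R 4.3.3) by the quasi-likelihood test after filterByExpr and TMM scaling, 1 fit per line, with Benjamini-Hochberg adjustment over all genes tested and a threshold of 0.05. Differences between lines came from a joint fit with an interaction term. The fits within lines were tested on simulated data. These had the same dispersion for every gene and larger changes than most of those called among the 52. That check thus does not show how well changes as small as these are found. A gene rose or fell only where it passed the threshold, and SE is the log2 change divided by the square root of its F. Alternatives were RLE factors, library totals alone, no filter, a replicate block, DESeq2 1.42.0 and leaving out each library. Genes were named by a rule: 12 fixed members in each comparison, the 8 called members with the largest change, those called against the main direction, the largest change in each role group, members never called or called in all lines, those with the highest and lowest level, and the 3 largest called changes in each direction among other mitosis genes. Further genes were named after their values were seen. The 52 genes and all lists were chosen with earlier results of these data known. Library totals ran from 7068155 to 19962159 counts, and the median SE within lines was 0.053 to 0.078. Markers, levels and figures used Python 3.11.15, pandas 2.3.3 and matplotlib 3.10.9. Results for some genes of the marker and regulator lists are not reported here.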

Additional observations from a re-analysis of the deposited data

Results flagged for a closer look

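KIF2C had 1 library far from the other CAL27 knockdown libraries. Among the 4 CAL27 knockdown libraries its lowest value was 185 CPM, in sh 64 replicate 1, and the nearest was 205 CPM. That gap was 0.852 of the whole range and passed Dixon's 95% limit for 4 samples. Chance sets apart about 1 in 20 groups in this way, and 53 genes were checked, so that chance alone would flag some. KIF2C passed the test in no CAL27 comparison.

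Other results stand here because an effect differed between lines or knockdowns by a test of the difference itself. The log2 change with overexpression was lower in SCC25 than in A253 for AURKB (-0.46), CDC20 (-0.41), MAD2L1 (-0.39), HMMR (-0.39), PLK4 (-0.37), BUB1B (-0.36), BIRC5 (-0.35), CCNA2 (-0.29), CCNB2 (-0.29) and BUB1 (-0.27). It was higher with knockdown in CAL27 than with overexpression in SCC25 for AURKB (0.40), BUB1B (0.31) and NUSAP1 (0.28). It was higher with sh 65 than with sh 64 for CDCA8 (0.39), KIF20A (0.38), CDCA3 (0.38), CDC20 (0.32), BIRC5 (0.28), TPX2 (0.28) and RACGAP1 (0.28). In each of these 3 comparisons, no gene kept its call under all alternatives.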

How the results depend on the processing

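No result reversed under any alternative. Leaving out 1 library at a time, the genes called and the members called were as follows. In A253, 658 to 1036 genes, with 0 to 1 members higher. In SCC25, 2124 to 3639 genes, with 18 to 37 members lower. For the mean of the CAL27 knockdowns, 937 to 3038 genes, with 0 to 1 members higher and 2 to 8 lower. With sh 64, 866 to 2876 genes, with 0 to 1 higher and 3 to 13 lower. With sh 65, 879 to 2026 genes, with 0 to 2 higher and 0 to 2 lower. Between sh 65 and sh 64, 263 to 1048 genes, with 0 to 9 higher. For SCC25 against A253, 318 to 936 genes, with 0 to 12 lower. For CAL27 against SCC25, 1111 to 2302 genes, with 0 to 10 higher. DESeq2 called 1540 genes in SCC25, where 21 members fell, 1461 for the CAL27 mean, 1191 with sh 64, 1170 with sh 65, 441 between them, 527 for SCC25 against A253 (5 members lower) and 1140 for CAL27 against SCC25 (1 lower). With RLE factors, 6 members were lower in SCC25 than in A253. With library totals alone, 2 rose with sh 65 and 10 were higher in CAL27 against SCC25, and with no filter 2 and 5. The cause was not tested.

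Whether replicate numbers pair the samples was not settled. Same-number correlations of deviations ran from -0.192 to 0.181 in A253, stood at -0.0306 in SCC25 and ran from -0.0107 to 0.153 in CAL27. Between different numbers in A253 they ran from -0.354 to 0.318. With 2 libraries per group the deviations mirror each other, so the check is weak in SCC25 and CAL27. For the CAL27 mean, the block called 3317 genes, against 2560 without it. With the replicate block, 2 members rose for the CAL27 mean, 3 rose and 2 fell with sh 65, 11 of 1260 called genes were members higher with sh 65 than sh 64, and 9 were higher and 1 lower in CAL27 against SCC25.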

Other observations

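Of 43 S phase genes, which serve DNA replication before G2, many were lower in CAL27. For the mean of both knockdowns 21 fell and none rose, with a median log2 change of -0.23. That is 48.8% called, against 18.8% of all genes tested. CCNE1 and CCNE2, the E cyclins of S phase entry, changed by -0.54 and -0.50. DSCC1, UHRF1 and DTL of the same list changed by -0.50, -0.42 and -0.38. With sh 64, 23 fell (median -0.27), and with sh 65, 9 fell and 1 rose (median -0.18). These are 53.5% and 23.3% called, against 15.7% and 14.6% of all genes. In SCC25, 35 fell (median -0.31), led by the origin protein ORC1 (-0.49), RFC5 (-0.47), GINS4 (-0.46) and MCM2 (-0.46). There 81.4% were called, against 23.9% of all genes. In A253, GINS3 rose (0.33) and RRM2, a subunit of ribonucleotide reductase, fell (-0.22), so that 4.65% were called, below the 7.97% of all genes. No test compared the S phase and mitosis lists.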
